A study of Rattus norvegicus with 2 samples.

Results

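The calcium cycle of the heart muscle cell was read through 8 genes: Atp2a2, Pln, Ryr2, Casq2, Slc8a1, Calr, Camk2d and Cacna1c. Every probe set with 1 of these symbols as its single gene in the platform annotation was taken, which gave 24 of the 8740 probe sets that were not controls. All 8 symbols were found, with 1 probe set each for Pln, Ryr2 and Casq2, 3 each for Calr and Cacna1c, 4 for Atp2a2, 5 for Slc8a1 and 6 for Camk2d. Not all are proteins of the sarcoplasmic reticulum: Slc8a1 and Cacna1c encode proteins of the surface membrane, Camk2d a soluble kinase, and Calr a protein best known from the endoplasmic reticulum of many cell types.

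The samples were cardiac tissue of male Dahl salt-sensitive (DS) rats aged 17 weeks, a strain that becomes hypertensive on salt. The high-salt group was fed a high salt diet and is labelled as having chronic heart failure. The low-salt group was fed a low salt diet and carries no disease label. Each group had 1 array, and the labels do not say which chamber was taken or whether animals were pooled, so every difference below is a difference between 2 RNA samples, with no test and no p-value.

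In each heartbeat, calcium enters the cell through the L-type channel and opens the ryanodine receptor, which releases a larger store of calcium from the sarcoplasmic reticulum. Relaxation follows when the calcium pump SERCA2 returns calcium to that store and the sodium-calcium exchanger expels the rest. Phospholamban holds the pump back until it is phosphorylated, and calsequestrin buffers calcium inside the store. Slower calcium uptake, often with less SERCA2, is a well-known feature of failing hearts in several species.

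No gene of the set differed by much between the 2 arrays. In its brightest probe set Atp2a2 read 1.14-fold lower with high salt, and Pln read 1.17-fold lower. Both differences were close to the shift that scaling to control transcripts makes. Readings under 126.4 were treated as too dim to order; 95% of the intensities below 0 were smaller in size than this noise floor. It was reached on at least 1 array by 10 of the 24 probe sets, and on both arrays by 9; the remaining one passed through its low-salt reading alone and so had to be lower. Of these 10, 7 read lower and 3 higher in the high-salt heart, whereas of all 1955 probe sets that reached the floor 54.3% read lower and 45.6% higher. None of the 10 was 2-fold lower or higher, which 1.69% and 3.53% of all such probe sets were. None was 1.5-fold different in either direction, against 17.7% of all. The largest difference was 1.41-fold, and the log2 ratios (high over low salt) ran from -0.49 to 0.16 with a median of -0.21, beside a median of -0.04 (quartiles -0.28 and 0.21) over all 1955. In tissue RNA, fewer muscle cells and less RNA per muscle cell cannot be told apart.

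The spread between probe sets of the same gene was used as the measure of error. Over 231 genes with at least 2 probe sets above the floor on both arrays, this spread had an SD of 0.22 on the log2 scale. It contains no variation between animals. Some of these probe sets are named for the same sequence, as 2 of Calr are, and are not independent. Lower values by more than 1 SD were found for 5 of the 10 probe sets, against 29.8% of all that reached the floor. Among these 5, rc_AA800212_at of Atp2a2 passed the floor through its low-salt reading alone and so had to be lower. Another, D78308_g_at of Calr, is named for the same sequence as a further probe set of the 10. The other 5 lay within 1 SD of no difference. A difference between 2 genes, with this error on both sides, has an SD of 0.31.

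**Figure D1:**
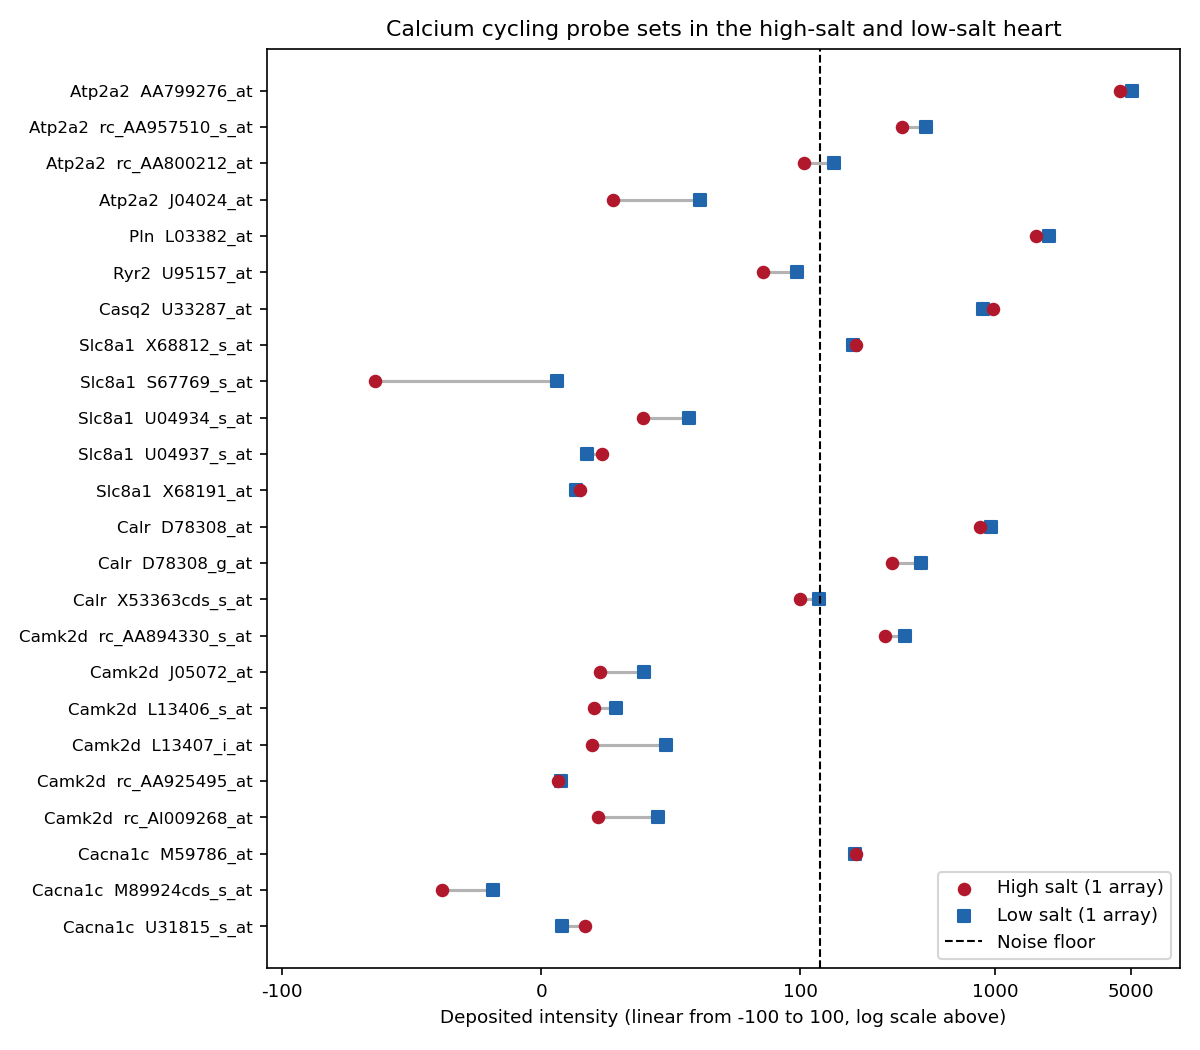
Deposited intensity of each of the 24 probe sets on the high-salt array (circles) and the low-salt array (squares), with 1 array per group and a grey line joining the pair; the axis is linear for dim readings and logarithmic for bright ones. The dashed line is the noise floor of 126.4, and 14 probe sets lie to its left on both arrays.

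The sequence around the annotated start is shown for 3 members, the pump gene Atp2a2, the pump inhibitor gene Pln, which differed almost equally, and Casq2, which differed the other way. Sequences are those of RefSeq on the rat build GRCr8, from 250 bases before to 50 after the start, 5′ to 3′ on the gene's strand. Capitals mark 4 motifs searched on both strands: the GC box GGGCGG, the CCAAT box CCAAT, the E-box CANNTG and the TATA box TATAAA.
Atp2a2 promoter, chr12:39733269-39733568, plus strand: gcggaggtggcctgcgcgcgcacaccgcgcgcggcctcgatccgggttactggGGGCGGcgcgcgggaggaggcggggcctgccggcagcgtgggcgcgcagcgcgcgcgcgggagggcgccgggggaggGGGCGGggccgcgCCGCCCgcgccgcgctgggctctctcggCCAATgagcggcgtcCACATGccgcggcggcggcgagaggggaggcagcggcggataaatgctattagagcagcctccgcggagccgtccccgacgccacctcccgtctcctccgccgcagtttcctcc
Pln promoter, chr20:33172244-33172543, plus strand: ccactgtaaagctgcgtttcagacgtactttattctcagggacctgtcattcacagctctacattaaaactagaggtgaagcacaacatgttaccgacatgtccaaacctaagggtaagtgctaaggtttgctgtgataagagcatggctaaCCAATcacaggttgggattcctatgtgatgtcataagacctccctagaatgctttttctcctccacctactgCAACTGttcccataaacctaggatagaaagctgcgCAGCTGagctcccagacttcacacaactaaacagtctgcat
Casq2 promoter, chr2:192214306-192214605, plus strand: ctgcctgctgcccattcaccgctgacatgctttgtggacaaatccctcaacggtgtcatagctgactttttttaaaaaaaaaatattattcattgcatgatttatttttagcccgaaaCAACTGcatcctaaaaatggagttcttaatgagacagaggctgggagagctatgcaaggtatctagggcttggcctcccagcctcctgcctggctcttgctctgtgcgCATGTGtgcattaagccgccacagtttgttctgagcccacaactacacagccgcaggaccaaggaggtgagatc

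The Atp2a2 window was 79.0% G and C and held 3 GC boxes, 1 CCAAT box and 1 E-box. The Pln window, at 45.0% G and C, held 1 CCAAT box and 2 E-boxes, and the Casq2 window, at 47.7%, held 2 E-boxes. Over 33469 rat promoter windows of this length, 33.1% held a GC box, 37.5% a CCAAT box, 72.1% an E-box and 14.2% a TATA box, and the median G and C content was 51.7%. Of the 8 members, 4 had a GC box, 5 a CCAAT box, 7 an E-box and 1, Calr, a TATA box. These matches describe letters in a window and were not related to the array values.

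Atp2a2 encodes the SERCA2 pump, and its 4 probe sets differed widely in brightness. The brightest, AA799276_at, read 4426.7 with high salt and 5065.0 with low salt, a log2 ratio of -0.19 or 1.14-fold lower. That difference was smaller than 1 SD between probe sets of a gene, and 32.6% of all probe sets that reached the floor had a lower ratio.

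The other Atp2a2 probe sets were much dimmer and read lower too. The probe set rc_AA957510_s_at read 334.9 with high salt against 440.3 with low salt, 1.31-fold lower. The probe set rc_AA800212_at read 104.3 against 148.8; it reached the floor on the low-salt array alone, so it was at least 1.18-fold lower. J04024_at read 27.7 against 61.3, both under the floor. All 4 therefore read lower in the high-salt heart, as did every probe set in 16.8% of the 95 genes with 4 probe sets. They agreed in direction, and the brightest showed the smallest difference. A disagreement in size was not resolved. The 2 above the floor on both arrays had log2 ratios of -0.19 and -0.39, a gap within the SD of 0.31 for a difference.

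Control probe sets for the 3′ and 5′ ends of abundant transcripts were compared on each array, because probe sets at different positions of a transcript respond to RNA breakage. The 3′ over 5′ intensity ratio of GAPDH was 1.3 on the high-salt array and 1.22 on the low-salt array, and that of beta-actin was 1.16 on the high-salt and 1.10 on the low-salt array. Where each Atp2a2 probe set lies on its transcript is not given in the sources used here, so the part of RNA breakage in their different ratios was not tested.

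Pln encodes phospholamban, the inhibitor of the pump. Its single probe set L03382_at read 1624.3 with high salt and 1899.7 with low salt, a log2 ratio of -0.23 or 1.17-fold lower, which just passed 1 SD. The inhibitor and the pump differed by nearly the same amount: the log2 ratio of Pln minus that of the brightest Atp2a2 probe set was -0.03, far within the SD of such a difference. Whether the proteins, or the phosphorylation of phospholamban, kept that balance was not measured.

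Casq2, the cardiac calsequestrin that stores calcium beside the release channel, was the member with the highest ratio. U33287_at read 976.3 with high salt and 871.9 with low salt, 1.12-fold higher with a log2 ratio of 0.16, within 1 SD of no difference. The log2 ratio of Casq2 minus that of Atp2a2 was 0.36, and minus that of Pln 0.39, both a little above the SD of 0.31 for a difference between genes. The store's buffer thus did not read lower along with the pump and its inhibitor, by a margin close to the error.

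Ryr2, the release channel itself, gave no ratio. Its single probe set U95157_at read 85.5 with high salt and 98.7 with low salt, both under the noise floor. These arrays could not order the 2 groups for the ryanodine receptor.

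Calr encodes calreticulin, a calcium-binding chaperone of the reticulum lumen that is abundant in the fetal heart. D78308_at read 842.8 with high salt against 958.1 with low salt, 1.14-fold lower. D78308_g_at, named for the same sequence and so not an independent reading, gave the lowest log2 ratio of all members, -0.49, at 296.7 against 417.8. The third, X53363cds_s_at, read 99.9 against 124.5, just under the floor on the low-salt array. All 3 read lower in the high-salt heart, as in 26.7% of the 348 genes with 3 probe sets, and no reading of calreticulin was higher.

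Camk2d, the main cardiac isoform of calcium/calmodulin-dependent kinase II, phosphorylates both phospholamban and the ryanodine receptor. The 1 probe set that reached the floor, rc_AA894330_s_at, read 272.5 with high salt and 345.7 with low salt, 1.27-fold lower with a log2 ratio of -0.34. The other 5 read between 6.6 and 22.6 with high salt and between 7.6 and 48.0 with low salt. Each of the 6 read lower in the high-salt heart, and of the 12 genes with 6 probe sets 2 (16.7%) did so throughout. Since 5 of the 6 were dim, the size for this kinase rests on 1 probe set, whose suffix marks sequence that may be shared with related transcripts.

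The 2 routes of calcium across the surface membrane barely differed. Cacna1c, the pore of the L-type channel, read 193.2 with high salt and 190.2 with low salt in M59786_at, a log2 ratio of 0.02. Its other probe sets were dim and went opposite ways: M89924cds_s_at read -38.4 against -18.5, and U31815_s_at 16.7 against 8.1. Slc8a1, the sodium-calcium exchanger, read 192.9 with high salt against 186.5 with low salt in X68812_s_at, a log2 ratio of 0.05. Its 4 dim probe sets split evenly, between -64.1 and 39.1 with high salt and between 6.0 and 57.1 with low salt. The log2 ratio of Slc8a1 minus that of Atp2a2 was 0.24, within the SD of such a difference, so a shift of the exchanger relative to the pump was not resolved.

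**Figure D2:**
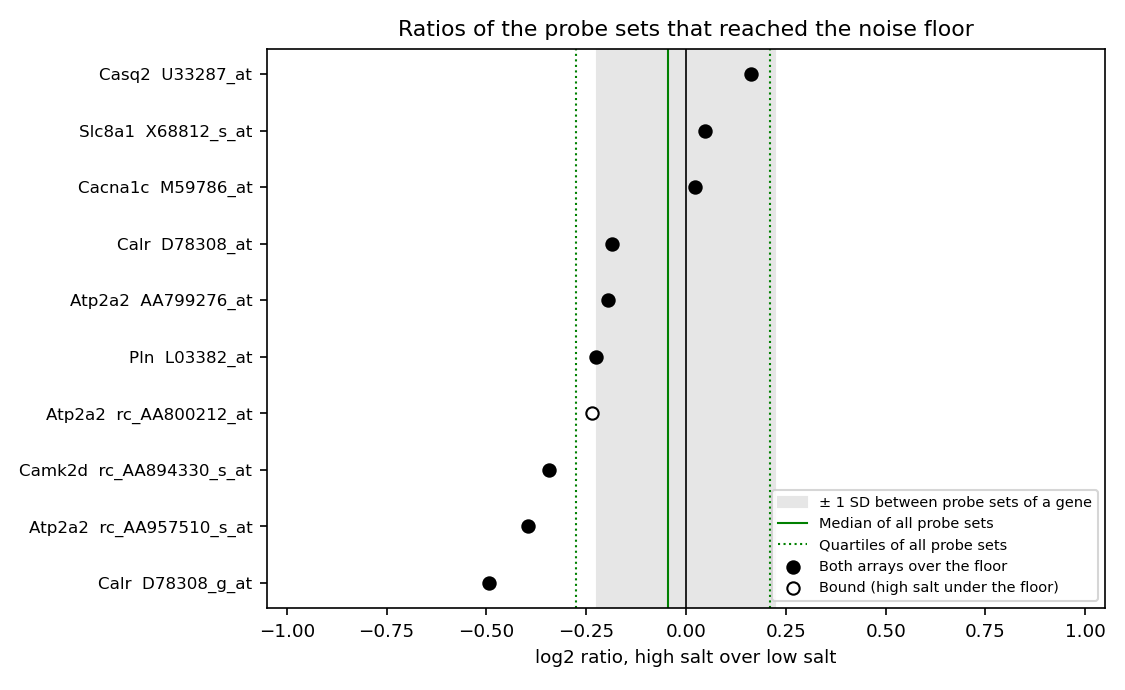
Log2 ratio (high over low salt) for the 10 probe sets that reached the noise floor, ordered by ratio, with ± 1 SD between probe sets of a gene as a grey band and the median and quartiles of all 1955 probe sets as green lines. The points run from -0.49 for Calr to 0.16 for Casq2, with 5 below the band and none above it; the open point is a bound.

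By gene, taking the brightest probe set, the order from lowest to highest log2 ratio was Camk2d, Pln, Atp2a2, Calr, Cacna1c, Slc8a1 and Casq2. Neighbours in this order differed by less than the SD of a difference between genes. Of the 7 genes, 4 were lower and 3 higher, while of all 1216 genes that reached the floor 54.5% were lower and 45.4% higher. The median of the 7 was -0.18, and that of all 1216 was -0.04.

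Below the noise floor, 11 of the 14 dim probe sets read lower and 3 higher in the high-salt heart, so that 18 of all 24 read lower as deposited. Of all 8740 probe sets 52.6% did, and of those under the floor on both arrays 52.1%. Many of these readings are of the same few genes and are not independent.

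Genes that work with the 8 members were read from 6 lists. Of 64 list genes on the array under a single symbol, 30 reached the floor, of which 20 were lower and 10 higher, with a median log2 ratio of -0.09; of all genes 54.5% were lower and 45.4% higher, with a median of -0.04. Among these 30, 1 gene was at least 2-fold higher and none at least 2-fold lower, where 3.54% and 1.89% of all genes were. Camk2b, Ppp3ca, Prkacb, Prkar2a and Cacna1g passed the floor on 1 array alone, so their directions were fixed. Sarcolipin (Sln) and triadin (Trdn), partners of the pump and the release channel, had no probe set under their own symbol and were not analysed here.

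Protein phosphatase 1, which removes phosphate from phospholamban and so restrains the pump, had higher readings for all 3 catalytic subunits. Of all genes that reached the floor 45.4% were higher, and 3.54% were at least 2-fold higher. Ppp1ca read 295.0 with high salt and 145.5 with low salt, 2.03-fold higher. Ppp1cb read 837.9 against 559.2 and, in its second probe set, 775.4 against 465.3, 1.5-fold and 1.67-fold higher. Ppp1cc read 425.6 against 324.6, 1.31-fold higher. These probe sets carry names from neighbouring sequence entries, and most have suffixes that mark possible shared sequence, so the 3 subunits may not be separate readings. The inhibitor of this phosphatase, Ppp1r1a, was under the floor on both arrays.

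On the kinase side, a catalytic subunit of protein kinase A, Prkaca, read 411.5 with high salt against 526.5 with low salt. Its second probe set read 185.4 against 223.3. Another catalytic subunit, Prkacb, read 121.4 against 139.8, and the regulatory subunit Prkar1a 745.3 against 768.8. Another regulatory subunit of that kinase, Prkar2a, read 155.0 against 74.4, at least 1.23-fold higher. Camk2b read 70.9 against 161.9, at least 1.28-fold lower, and -4.2 against -27.1 in a dim probe set. Among phosphatase genes outside protein phosphatase 1, Ppp3ca read 95.1 against 133.5, and Ppp2r1a 455.9 against 497.8. The second Ppp2r1a probe set read 383.9 against 430.5. Camk2b, Ppp3ca and Prkacb passed the floor through their low-salt readings alone and Prkar2a through its high-salt reading alone, which fixed their directions. Calm2, the only calmodulin gene of the list to reach the floor, read 452.3 with high salt against 367.6 with low salt, a log2 ratio of 0.30. The list of kinases, phosphatases and calmodulin had 6 lower and 5 higher genes among 11, with a median of -0.04. Of all genes 54.5% were lower, also with a median of -0.04.

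By brightest probe set, the release unit and junction list had 5 lower genes and 1 higher gene among 6, with a median log2 ratio of -0.22, where 54.5% of all genes were lower with a median of -0.04. The 5 include Casq1 at -0.02 and Fkbp1a, whose other probe sets were higher. S100a1, a calcium sensor protein that binds the pump and the ryanodine receptor, read 154.6 with high salt and 254.4 with low salt, 1.65-fold lower. Its second probe set to reach the floor read 88.0 against 191.9, at least 1.52-fold lower; it passed through its low-salt reading alone, so its direction was fixed. The 2 dim S100a1 probe sets read 67.2 against 109.0 and 8.8 against -8.6. Of all genes 9.46% were at least 1.5-fold lower. Jph2, which holds the reticulum close to the surface membrane, read 800.2 against 957.8, and the inositol trisphosphate receptor gene Itpr3 188.8 against 259.5. Fkbp1a, whose protein binds ryanodine receptors, had no settled direction, with log2 ratios of -0.18, 0.24, 0.42 and 0.59 over its 4 probe sets.

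None of the remaining lists held a gene past 2-fold. Reticulum chaperones had 5 lower and 2 higher genes among 7, with a median log2 ratio of -0.09. Of all genes 54.5% were lower, with a median of -0.04. Pdia6 had the lowest ratio, at 186.2 with high salt against 275.3 with low salt, while Calu read 610.9 against 499.6. Hspa5 read 470.5 against 547.4, and Canx had probe sets on both sides of no difference. The 4 thin filament genes had a median of -0.10, with 3 lower and 1 higher, where 54.5% of all genes were lower. The higher gene was Actc1, at 8364.9 with high salt against 7848.9 with low salt. Tpm1 read 5757.0 against 6140.5 in its brightest probe set. Troponin I, Tnni3, read 5503.1 against 6264.6 and, in its dimmer probe set, 2844.5 against 3976.3, a log2 ratio of -0.48. Troponin T, Tnnt2, read 5576.1 against 6017.5. The pump paralog Atp2a3 read 164.6 against 187.0. Of 17 other genes of surface calcium entry and exit, 16 were under the floor on both arrays, and the one that passed, Cacna1g, read 130.2 against 32.9, at least 1.03-fold higher.

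**Figure D3:**
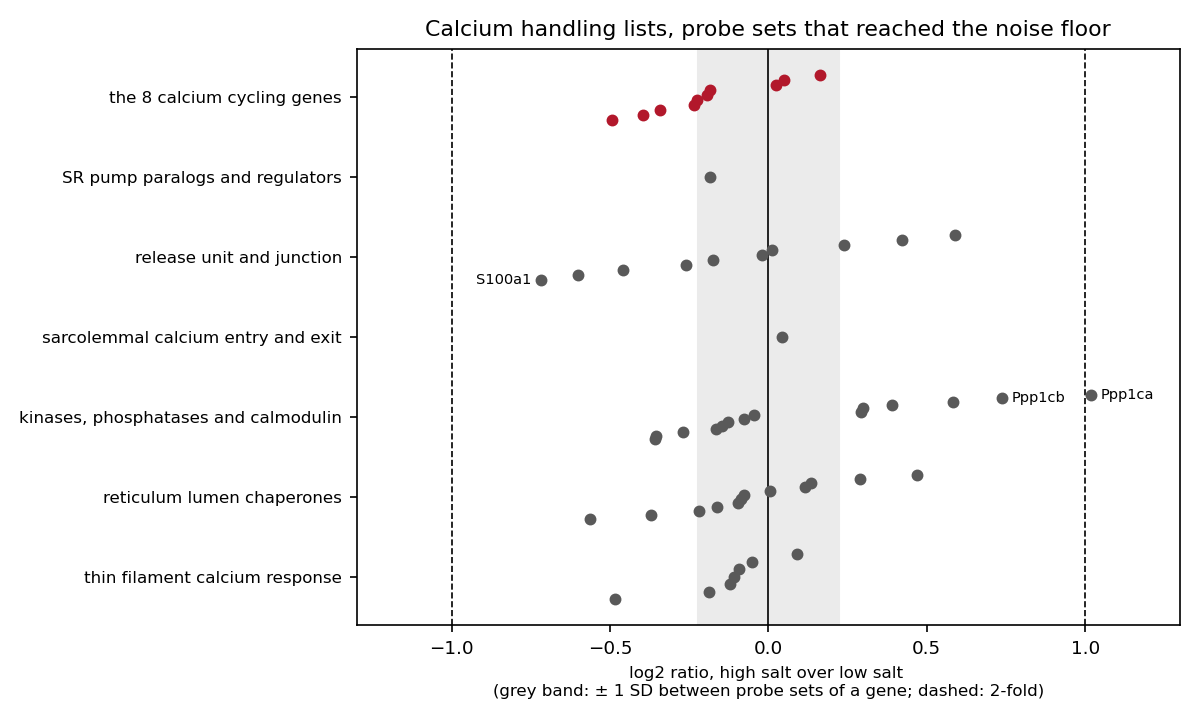
Log2 ratio (high over low salt) for every probe set that reached the noise floor, for the 8 calcium cycling genes (red) and 6 lists of genes that work with them (grey), with ± 1 SD between probe sets of a gene as a band and 2-fold as dashed lines. Ppp1ca is the only point past 2-fold, and S100a1 lies lowest.

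Marker genes set these differences against the make-up of the tissue. All 7 cardiomyocyte markers on the array reached the floor, with a median log2 ratio of -0.02 and, in their brightest probe sets, ratios from -0.19 for Tnni3 to 2.85 for Nppa, the stress-induced natriuretic peptide. By the brightest probe set of each gene, their summed intensity was 43502.1 with high salt and 38634.9 with low salt, a gap that Nppa makes: without it, the sums of the other 6 were 37504.4 with high salt and 37801.5 with low salt. Dimmer probe sets of Myh6, the alpha myosin heavy chain, had lower log2 ratios of -0.94 and -0.52, beside -0.10 in its brightest. Of 6 fibroblast markers that reached the floor, 5 were higher, with a sum of 3675.2 against 2354.4, where 45.4% of all genes were higher. S100a4 and Fn1 passed the floor through their high-salt readings alone, so their directions were fixed. By brightest probe set, all 3 red cell markers were higher, with a sum of 7944.9 against 3134.8. For Alas2 and Slc4a1 that probe set passed through its high-salt reading alone. The Slc4a1 probe set above the floor on both arrays read 168.3 with high salt against 174.8 with low salt. The atrial markers Myl4 and Myl7 and the endothelial markers Pecam1, Vwf, Kdr and Icam2 were under the floor on both arrays. The only endothelial marker to reach it, Flt1, read 121.3 with high salt against 127.9 with low salt. It passed through its low-salt reading alone, so its direction was fixed. Of the skeletal muscle markers, Acta1, which the stressed heart also expresses, read 3181.4 against 2096.2, 1.52-fold higher, while the calsequestrin Casq1 read 147.8 against 149.8 and the pump Atp2a1 was under the floor. The one smooth muscle marker to reach the floor, Des, which heart muscle expresses too, was 1.46-fold higher. The 2 leukocyte markers that reached it went opposite ways: Cd74 was 2.26-fold lower and Lyz2 3.52-fold higher, and Ptprc was under the floor. The part of cell make-up in the readings of the 8 genes was not tested.

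Array scaling matters for differences this small. The bacterial and phage control probe sets above the floor, 5 in all, had a mean log2 ratio of -0.18, close to the ratios of Atp2a2 and Pln. Of these, 4 were lower and 1 higher. The 4 lower ones are named for the 3′ and 5′ ends of BioDn and CreX, so they are not all independent. GAPDH and beta-actin control probe sets, 6 in all, averaged 0.05. Scaling the arrays to the bacterial and phage controls moved the median of all probe sets to 0.11, a shift of over 0.1, and the Atp2a2 ratio to -0.02; the member median was then -0.03. The member median minus the median of all probe sets ran from -0.27 to -0.15 over the settings tried. Atp2a2, Pln, Calr and Camk2d stayed below 0 in every setting that gave them a value, and Casq2 and Slc8a1 above it. The values nearest 0 were -0.0078 for Calr and 0.0028 for Slc8a1, so their signs held by very little. All settings use the same 2 arrays. Cacna1c turned below 0 in 2 scalings, to -0.02 in both, so it has no direction.

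**Figure D4:**
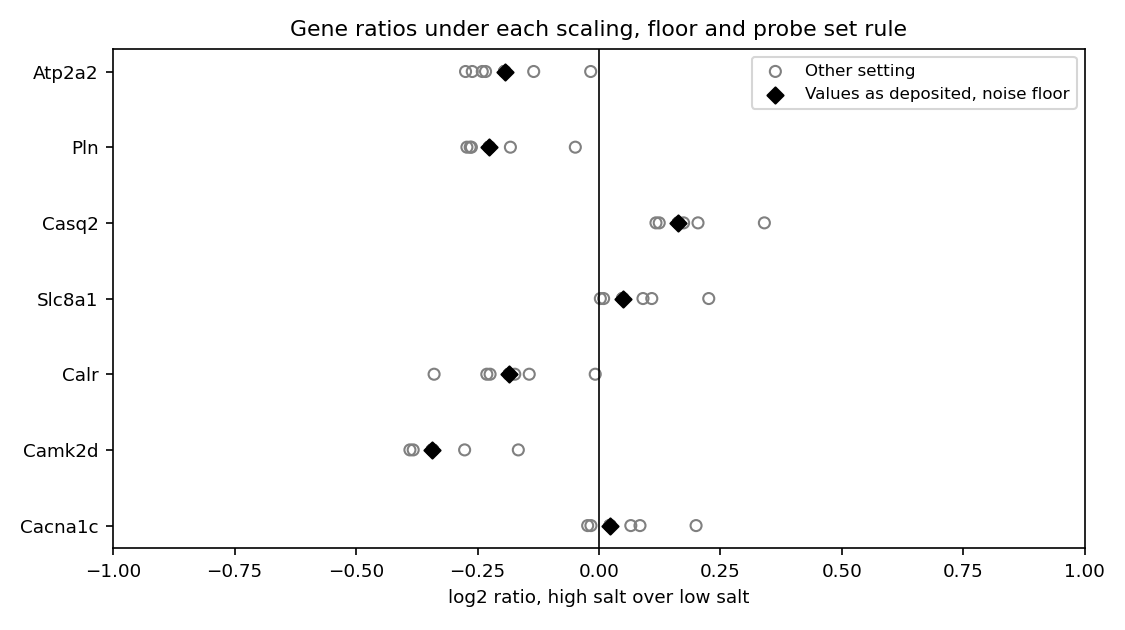
Log2 ratio (high over low salt) for the 7 genes that reached the noise floor, with the values as deposited (diamonds) and under each other scaling, floor or probe set rule (open circles). Atp2a2 ran from -0.27 to -0.02, Casq2 from 0.12 to 0.34, and Cacna1c crossed 0.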

How the data were processed

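Per the labels' protocols, biotin-labelled cRNA was made from total RNA and fragmented. The authors deposited 1 linear intensity per probe set and array; how they were computed is not stated by the labels. Of 8799 probe sets, 59 were controls, 27.3% and 27.4% of the high-salt and low-salt values were below 0, and the 2% trimmed means without controls, 99.2 on both arrays, differed by 0.072%, so values were used as deposited. The platform annotation of 2016 gave 7006 probe sets 1 symbol, 308 several and 1426 none. Both values were raised to the noise floor before the log2 ratio was taken; with 1 value under it the ratio is a bound, with both it was left out. On the high-salt array 20.0% and on the low-salt array 20.3% of probe sets reached the floor.

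The members, lists and settings were chosen with earlier results of these data known. Every member probe set was named, and from each list up to 4 genes with the largest ratios, S100a1, Sln and Trdn. Calm2, Prkaca, Prkacb, Prkar1a, Prkar2a, Ppp1r1a, Ppp2r1a, Ppp3ca, Myh6 and markers under the floor were named after their values were seen. With 2 arrays a pattern is 1 ratio, so no genes of like pattern were sought. The ratio step was tested on simulated arrays. Alternatives were other floors, scalings, probe set rules and folds; 2 scalings to control probe sets were added after seeing the data. The number of arrays limits the precision. Python 3.11.15, numpy 2.4.6, pandas 2.3.3, statsmodels 0.14.6 and matplotlib 3.10.9 were used.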

Additional observations from a re-analysis of the deposited data

How the results depend on the processing

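The member median log2 ratio ran from -0.32 to -0.03 over 12 alternatives and stayed below 0 in each. The count of member probe sets at least 2-fold lower was 0 and became 3 with the floor at the 40th percentile of all values, 10.9, and also 3 with log2(value + 1) and no floor; the 3 added were J04024_at of Atp2a2 and L13407_i_at and rc_AI009268_at of Camk2d, all under the noise floor, and 7.62% of all probe sets were that much lower at the floor of 10.9. At that floor 7 genes of the calcium lists passed 2-fold in place of 1, as more dim genes were measured. The dim Atp2a2 probe set rc_AA800212_at moved to -0.51 at the floor of 10.9 and without a floor. The 215 other recomputed values moved by no more than 1 SD between probe sets of a gene or, for counts, by no more than 1.5 times. No paired analysis was possible because each group has 1 array. Leaving out a replicate was not possible for the same reason. Of the 24 member probe sets, 14 were too dim on both arrays to be ordered, among them the only one for Ryr2, and 12 have suffixes that mark possible shared sequence; differences as small as those of Atp2a2 and Pln are close to the shift that scaling to control transcripts makes.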
